A study of Mus musculus with 24 samples.

Results

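Liver invariant natural killer T (iNKT) cells that carry the TCRβ variable segment Trbv13-2 were compared with those that carry Trbv29, in gene counts of single cells from SmartSeq2, which covers whole transcripts of cells sorted into wells and adds no molecular identifiers. The counts are thus reads after PCR, not molecules. A cell was taken if it held at least 100000 counts in all, and it was assigned to the Trbv segment with the most counts if that segment had at least 5. By this rule 319 of the 566 cells in the tables, and of the 552 cells over the minimum, were members: 234 cells led by Trbv13-2 and 85 led by Trbv29. The members were chosen by the measured counts of the Trbv segments, so that their Trbv levels are a description, and every segment of the T cell receptor was left out of the gene comparisons.

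The cells came from the liver of male NOD mice, which become diabetic through autoimmunity, at 13 to 15 weeks of age. They were sorted singly as live cells of intermediate TCRβ level that bind αGalCer/CD1d tetramers, with 3 mice in each group. Mice of the group labelled CTL were untreated (120 cells led by Trbv13-2 and 43 by Trbv29), and those of the group labelled KRN received αGalCer/CD1d-NPs, nanoparticles coated with CD1d that carries the glycolipid αGalCer, at 20 µg per dose with 2 doses per week for 5 weeks (114 and 42 cells). The labels do not tie a cell to a mouse. Each group was thus 1 sample, cells were not treated as replicates, and intervals given below are 95% intervals that cover counting error only, not the spread between mice.

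iNKT cells recognise lipids bound to CD1d through a nearly fixed TCRα chain, made from Trav11 and Traj18, paired with one of a few TCRβ segments. In the mouse these are mainly the segments of the Vβ8 family, of which Trbv13-2 encodes Vβ8.2, and Trbv29, which encodes Vβ7. T regulatory type 1 (TR1) cells secrete the immunosuppressive cytokine IL-10, often with IL-21, and display the inhibitory receptor LAG-3. Most liver iNKT cells of untreated mice are instead of the iNKT1 kind, with T-bet, NK cell receptors, cytotoxic granule proteins and chemokines.

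The second exon of each segment, which encodes nearly the whole variable domain, is shown because it is what separates the classes. Both lie on the plus strand of chromosome 6 in GRCm38.p6, Trbv13-2 at chr6:41121539-41121832 and Trbv29 at chr6:41271587-41271881. In capitals are the bases from the last TGT codon in frame, where the junction begins, to the end of the exon.
Trbv13-2: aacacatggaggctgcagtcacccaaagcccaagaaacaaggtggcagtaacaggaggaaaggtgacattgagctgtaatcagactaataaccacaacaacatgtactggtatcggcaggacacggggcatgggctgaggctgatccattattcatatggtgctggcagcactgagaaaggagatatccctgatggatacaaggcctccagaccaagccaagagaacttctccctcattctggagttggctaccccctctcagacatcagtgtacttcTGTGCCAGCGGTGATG
Trbv29: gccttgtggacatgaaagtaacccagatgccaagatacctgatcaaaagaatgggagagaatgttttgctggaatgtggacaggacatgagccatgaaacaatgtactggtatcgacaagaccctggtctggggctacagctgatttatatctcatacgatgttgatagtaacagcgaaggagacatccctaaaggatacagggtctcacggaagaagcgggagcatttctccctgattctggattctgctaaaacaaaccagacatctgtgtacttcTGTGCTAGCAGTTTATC
The exons are 294 and 295 bases long and share 200 bases in an alignment of 302 columns (66.2% identity). A runner-up Trbv segment with at least 5 counts was found in 41 of the 120 CTL and 40 of the 114 KRN cells led by Trbv13-2, against 1 of 43 and 1 of 42 led by Trbv29. Trbv12-2 reached 10 counts in 16.7% and 14.0% of the cells led by Trbv13-2 and in none of those led by Trbv29.

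The leading count lay well above the minimum in most members. The leading segment had a median of 138.5 counts (13 to 941) in CTL and 158.5 (16 to 699) in KRN cells led by Trbv13-2, and of 280 (46 to 1014) and 294.5 (9 to 1264) in those led by Trbv29. Just outside the threshold were 3 CTL cells at 3, 4 and 4 counts of Trbv13-2, and 1 cell in each sample at 3 counts of Trbv29. Trbv13-2 led in 50.8% (44.3 to 57.4) of the 236 CTL cells with an assigned segment and in 50% of the 228 KRN cells. Trbv29 led in 18.2% (13.5 to 23.7) and 18.4%.

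In depth the classes were close. The median of total counts per cell was 677195 and 592702 in CTL and 625138 and 605437 in KRN (Trbv13-2 and Trbv29), and the median number of genes with a count was 909.5, 867, 882 and 874. No cell name was in both tables. Genes that define liver iNKT cells were seen in all 4 classes: Cd3g in 76.7% to 85.7% of cells, Il2rb in 65.8% to 81.4% and Cxcr6 in 46.5% to 86.0%. Klrb1c, which encodes NK1.1, was seen in 2.33% to 14.3%. Zbtb16, which encodes the transcription factor PLZF, was seen in 2.5% and 9.65% of cells led by Trbv13-2 (CTL and KRN) and had no read in either Trbv29 sum. Markers of hepatocytes, B cells and macrophages reached 10 counts in no member, and those of liver endothelium and CD8 T cells in at most 2 cells of a class.

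In untreated mice neither class had a read of Il10, Il21 or Lag3. For each gene, 0 of 120 cells led by Trbv13-2 allows a share of up to 2.5% by a limit of 3 cells and up to 3.03% by the exact interval. For 0 of 43 led by Trbv29 these limits are 6.98% and 8.22%.

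In treated mice Il10 was seen among the cells led by Trbv13-2 and in no cell led by Trbv29. At least 10 counts of Il10 were found in 20 of 114 cells led by Trbv13-2 (17.5%, 11.1 to 25.8, exact Clopper-Pearson interval) and in 0 of 42 led by Trbv29, which allows up to 7.14% by a limit of 3 cells and up to 8.41% by the exact interval. The difference was 17.5 percentage points (Newcombe interval of 7.30 to 25.6). The positive cells held 77 to 8528 counts of Il10 with a median of 1709.5, well clear of the minimum, and no cell led by Trbv29 had even 1 read. Summed over cells, Il10 stood at 529.7 CPM (the gene's part of all counts of the class) with 22.5% of it from 1 cell, and at 0 CPM in the Trbv29 sum. For scale, among 1487 genes tested the share of cells was at least 10 points higher in Trbv13-2 for 10.4% and in Trbv29 for 8.54% of genes in KRN, and for 6.52% and 6.05% in CTL; Il10 and Il21 are not among the 1487, since fewer than 10% of all members held them.

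Il21 and Lag3 leaned the same way, with intervals that include 0. Il21, a cytokine of follicular helper and TR1 cells, reached 10 counts in 13 of 114 cells led by Trbv13-2 (11.4%) and 1 of 42 led by Trbv29 (2.38%), a difference of 9.02 points (-1.94 to 16.4). Lag3 reached them in 30 (26.3%) and 6 cells (14.3%), a difference of 12.03 points (-3.33 to 23.6). All 3 genes were found together in 7 cells led by Trbv13-2 and in none led by Trbv29, and at least 1 of the 3 in 38 (33.3%) and 6 (14.3%). Lag3 was thus seen in both classes, at up to 6400 counts in a cell led by Trbv13-2 and up to 2637 in one led by Trbv29. These 3 genes were chosen with earlier results of the same cells known, and their shares are given without a test.

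Il10 was also counted by groups of cell names. The names carry a number 1 or 2, read here as the flow cell lane, and an index number; the labels describe neither. In lane 1, Il10 was seen in 15 of 77 cells led by Trbv13-2 and 0 of 30 led by Trbv29, and in lane 2 in 5 of 37 and 0 of 12. Within the 6 blocks of consecutive index numbers in the KRN cell names, 2 to 6 cells led by Trbv13-2 were positive in every block and no cell led by Trbv29 in any. With no positive cell led by Trbv29 at all, this order could not have reversed, and the lane 2 difference of 13.5 points had an interval (-11.9 to 27.98) that includes 0.

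The cells with Il10 differed in their TCRβ junctions. A TCRβ junction of Trbv13-2 was available for 17 of the 20 cells, and all 17 differed; they used 8 joining segments and had 14 to 31 bases (median of 21), where the 90 cells with fewer than 10 counts of Il10 had 10 to 32 bases (median of 21). The junctions of 5 of the cells with the most Il10 are shown to let the variety be seen. The strings run from the last 5 bases taken from the germline segment, in capitals, into the joining segment.
Il10 at 4400 counts: TGATGcccgggactggggctatg
Il10 at 3470 counts: GGTGAgccgggacaaaacaa
Il10 at 3100 counts: TGATGcaggcaggggggactcc
Il10 at 2685 counts: CGGTGccgggacagggtatgc
Il10 at 1831 counts: TGATGcgagaacaaac
In KRN all 107 junctions of cells led by Trbv13-2 differed, while the 41 of cells led by Trbv29 held 35 different ones. The 3 that were shared are shown because their cells bear on the Trbv29 shares, and were seen in 5, 2 and 2 cells.
Shared by 5 cells: AGCAGgggggactggggggtatatga
Shared by 2 cells: AGCAGcctccgggacgaaaaca
Shared by 2 cells, the other pair: AGTTTccgtacagcaga
Of the 5 cells with the first, 3 had Lag3, 5 had Gzma and none had Il10 or Il21. With 1 cell kept per clonotype (same junctions of both chains) 38 cells led by Trbv29 remained, of which 4 had Lag3. The difference in the Lag3 share was then 15.8 points (0.390 to 26.6). The TCRα junction was shared far more widely: of 237 members with a chain of Trav11 and Traj18, 99 had the bases gggcgataga and 53 had gtgggggatag, and these 2 were the most frequent in each class of both samples.

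**Figure D1:**
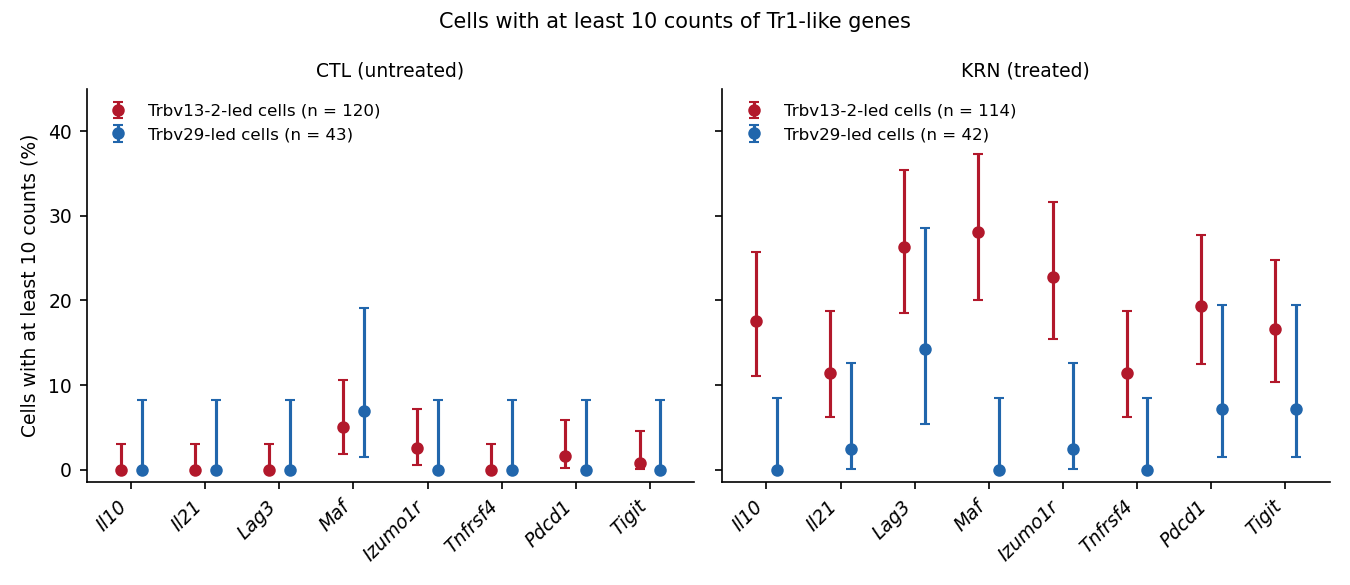
Share of cells with at least 10 counts of 8 Tr1-like genes picked from the list of 17, by leading segment, in CTL and KRN. Points are shares in percent and bars exact 95% binomial intervals; in KRN Il10, Maf and Tnfrsf4 are at 0 in the 42 cells led by Trbv29 and at 17.5%, 28.1% and 11.4% in the 114 led by Trbv13-2.

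A wider list of 17 genes that mark TR1-like cells was higher in sum, though not in every member. In KRN their summed level was 3930 CPM in cells led by Trbv13-2 and 1233 CPM in those led by Trbv29, against 374.8 and 83.8 CPM in CTL. The list was made with earlier results of these cells known. Over all 17 genes the share of KRN cells was higher in Trbv13-2 for 12, higher in Trbv29 for 4 (Irf4, Prdm1, Ptger2 and Rgs16, each in at most 6 cells of a class) and 0 in both for Nfia. This order was not counted over all tested genes. Icos, a costimulatory receptor, was seen in 14.9% and 11.9%. Only 3 of the genes passed the filter on low values, Lag3 and Maf mainly through the KRN cells led by Trbv13-2, so that no count of 2-fold differences is given for this list. Pdcd1, which encodes the inhibitory receptor PD-1, was seen in 22 (19.3%) and 3 cells (7.14%), and Izumo1r, which encodes folate receptor 4, in 26 (22.8%) and 1 (2.38%). Outside the naming rule, and chosen after their values were seen, are Maf and Tnfrsf4. Maf, a transcription factor that drives Il10, was seen in 32 of 114 cells led by Trbv13-2 (28.1%) and in 0 of 42 led by Trbv29, a difference of 28.1 points (16.9 to 36.9). Tnfrsf4, which encodes OX40, was seen in 13 (11.4%) and 0, a difference of 11.4 points (1.84 to 18.5). In CTL, Maf had been seen in 5.0% and 6.98% of cells, and there the intervals of the classes overlapped.

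These genes met in the same cells. At least 3 of the 17 genes reached 10 counts in 38 of 114 KRN cells led by Trbv13-2 (33.3%, 24.8 to 42.8) and in 2 of 42 led by Trbv29 (4.76%, 0.582 to 16.2), a difference of 28.6 points (15.0 to 38.3). At least 5 did so in 21 cells and 1 cell, and the highest number was 9 and 5. At least 1 did so in 64 cells led by Trbv13-2 (56.1%, 46.5 to 65.4) and 19 led by Trbv29 (45.2%, 29.8 to 61.3), with overlapping intervals. In CTL at least 1 did so in 24.2% and 20.9% of cells. The cut-offs of genes per cell, here and for the other lists, were not fixed by the rule that chose the members. In CTL the corresponding counts for at least 3 genes were 1 of 120 and 0 of 43. The share of cells with at least 3 Tr1-like genes had the same order in all 6 index blocks of KRN. In most of these blocks the Trbv29 share was 0, so that the order could not have reversed there.

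**Figure D2:**
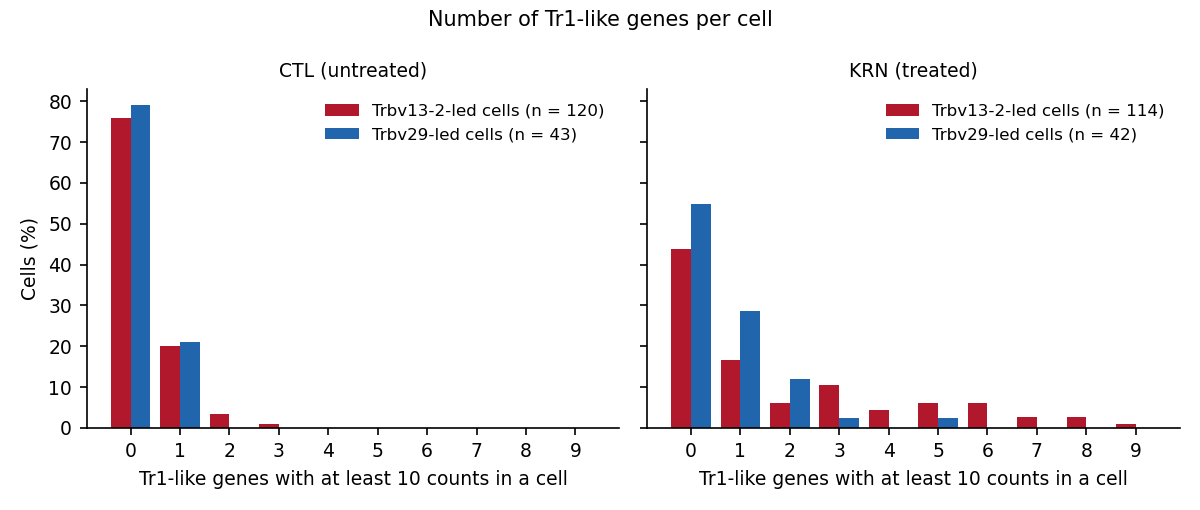
Number of Tr1-like genes with at least 10 counts in a cell (of 17), as the percentage of cells of each class. In KRN, cells led by Trbv13-2 reach 9 genes, while those led by Trbv29 reach 5 and all but 2 of 42 have fewer than 3.

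In treated mice most listed genes of cytotoxicity were seen in a larger share of the cells led by Trbv29 than of those led by Trbv13-2. Gzma, which encodes granzyme A, was seen in 29 of 42 cells led by Trbv29 (69.0%, 52.9 to 82.4) and in 33 of 114 led by Trbv13-2 (28.9%, 20.8 to 38.2), a difference of -40.1 points for Trbv13-2 minus Trbv29 (-54.2 to -22.6). In CTL it had been seen in 4.65% and 4.17%. Its summed level in KRN was 7008 CPM against 2627 CPM, and the median cell led by Trbv29 held 2997 counts of Gzma where the median cell led by Trbv13-2 held 0.

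Of the 12 granzymes and effectors listed, 8 had the higher KRN share in Trbv29, 3 in Trbv13-2 (Gzmc, Serpinb9 and Srgn) and Gzmm was 0 in both. The same count of order was not made over all tested genes. Gzmb (granzyme B) was seen in 73.8% of cells led by Trbv29 and 48.2% of those led by Trbv13-2, a difference of -25.6 points (-39.7 to -8.13), and in CTL in 30.2% and 30.8%. The list of 12 granzymes and cytotoxic effectors summed to 21728 CPM in the Trbv29 class and 14765 CPM in the Trbv13-2 class of KRN, and to 7158 and 9440 CPM in CTL. Of its 6 tested members, 2 were at least 2-fold higher in Trbv29 and 0 in Trbv13-2, where 7.4% and 13.2% of all 1487 tested genes were, and none was 2-fold different in CTL; the median log2 ratio (Trbv13-2 over Trbv29) of these members was -0.63, and that of all tested genes 0.03. At least 5 of the 12 genes were found in 22 of 42 cells led by Trbv29 (52.4%, 36.4 to 68.0) and 21 of 114 led by Trbv13-2 (18.4%, 11.8 to 26.8). Nkg7, a granule membrane protein and the most abundant of the list, was seen in 95.2% and 88.6%, with a log2 ratio of -0.24. Srgn, which encodes the granule proteoglycan serglycin and was chosen after its values were seen, had the other order: it stood at 1536 CPM in Trbv29 and 2641 CPM in Trbv13-2.

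All 19 NK cell receptor genes listed had the higher KRN share in Trbv29, some by little, as Klrc1 (21.4% against 21.1%) and Klrc2 (19.0% against 18.4%). How many of all tested genes had that order was not counted. At least 5 of 19 receptor genes reached 10 counts in 26 of 42 KRN cells led by Trbv29 (61.9%, 45.6 to 76.4) and 34 of 114 led by Trbv13-2 (29.8%, 21.6 to 39.1), but in 14.0% and 10.8% of CTL cells. Klrk1, which encodes the activating receptor NKG2D, was seen in 71.4% against 37.7% of KRN cells, a difference of -33.7 points (-47.8 to -16.1), while in CTL it was seen in 27.9% against 40.0%. Klre1, a receptor of the lectin type, was seen in 61.9% against 35.1% (-26.8 points, -42.2 to -9.19), and Klra5, of the Ly49 family, in 54.8% against 28.1% (-26.7 points, -42.6 to -9.43). Reads of Ly49 genes can be shared between near-identical copies, and their levels are uncertain. The Ly49 genes are thus not separate observations in the counts of receptor genes given here. Of the 11 tested receptor genes, 4 were at least 2-fold higher in Trbv29 in KRN and 0 in Trbv13-2 (7.4% and 13.2% of all tested genes), with a median log2 ratio of -0.79. In CTL 1 was higher in Trbv29 and 2 in Trbv13-2 (5.31% and 11.8% of all tested genes), with a median of 0.24. Ncr1 and Cd244a passed the filter on low values only with the cells led by Trbv29 counted, which tilts these counts and medians towards Trbv29.

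Ncr1, which encodes the NK receptor NKp46, was the 1 tested receptor gene at least 2-fold higher in Trbv29 in both samples. It was seen in 13.95% of CTL cells led by Trbv29 and 2.5% of those led by Trbv13-2 (-11.5 points for Trbv13-2 minus Trbv29, -24.9 to -2.75), and in 35.7% and 15.8% of KRN cells (-19.9 points, -36.0 to -5.00). Its log2 ratio was -1.10 in CTL and -1.34 in KRN. The CTL sum of Trbv13-2 had 62.1% from 1 cell, and the CTL ratio was -0.55 with a leading Trbv of at least 50 counts, -0.73 in lane 2 and -2.81 with a low runner-up segment. Ncr1 is also 1 of 3 NK cell markers fixed for this comparison, with Klra8 and Eomes. At least 1 of them was seen in 6 CTL cells of each class, 5.0% of those led by Trbv13-2 and 13.95% of those led by Trbv29. In KRN the counts were 32 (28.1%, Trbv13-2) and 18 (42.9%, Trbv29). The summed level of the 3 markers was 208.1 and 423.1 CPM in CTL and 601.6 and 1489 CPM in KRN. Eomes, a defining gene of NK cells, reached 10 counts in no member. Of the KRN cells with Ncr1, Cd3e reached 10 counts in 13 of 18 led by Trbv13-2 and 13 of 15 led by Trbv29, and Cd3g in 12 of each. Trbc2, on the transcript that chose the members, reached 10 counts in 16 of 18 and 15 of 15, and all cells had been sorted on TCRβ and the tetramer.

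Of 7 chemokines listed, 5 had the higher KRN share in Trbv29 and 2 were at 0 in both. Among the 5, Ccl3 (9.52% against 7.89%) and Cxcl16 (2.38% against 0%) differed by little, and the order over all tested genes was not counted. Of 3 tested, 1 was 2-fold higher in Trbv29 and 0 in Trbv13-2 (7.4% and 13.2% of all tested genes), and at least 3 chemokines were found in 23.8% (12.1 to 39.5) and 13.2% (7.56 to 20.8) of cells, with overlapping intervals. Ccl5 (RANTES) was seen in 40 of 42 KRN cells led by Trbv29 (95.2%) and 73 of 114 led by Trbv13-2 (64.0%), a difference of -31.2 points (-41.0 to -17.4), and in 58.1% and 56.7% of CTL cells. Ccl4, which draws in other immune cells, was seen in 35.7% and 21.1% in KRN, with an interval of the difference of -31.1 to 0.566. Its Trbv29 sum of 1009 CPM had 45.2% from 1 cell. The 9 iNKT1 markers, some of which also stand in the lists above, followed: at least 5 of them were found in 54.8% of KRN cells led by Trbv29 and 29.8% of those led by Trbv13-2, and in 41.9% and 31.7% in CTL. Of 8 tested iNKT1 markers, 0 were 2-fold different in KRN in either direction, and their median log2 ratio was -0.45. Tbx21, which encodes T-bet, was seen in 31.0% and 22.8% of KRN cells.

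**Figure D3:**
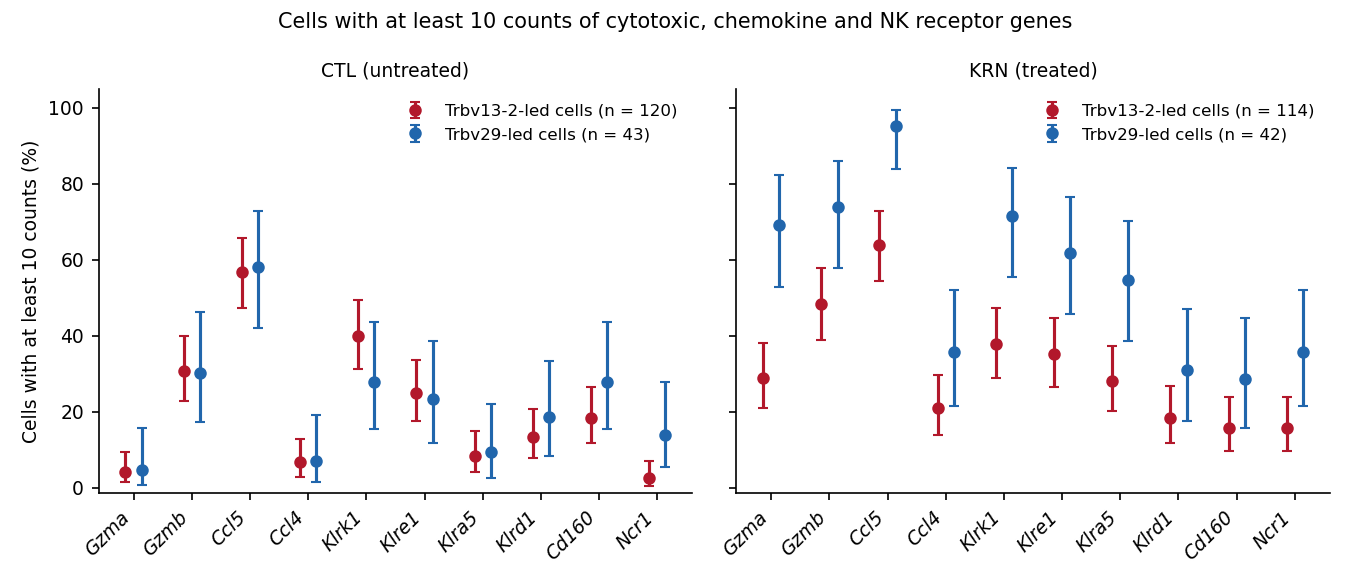
Share of cells with at least 10 counts of 10 granzyme, chemokine and NK receptor genes, by leading segment, in CTL and KRN. Points are shares in percent and bars exact 95% binomial intervals. The 10 genes were picked from the lists, and the listed effectors with the other order in KRN (Gzmc, Serpinb9 and Srgn) are not shown. In KRN all 10 points of Trbv29 lie above those of Trbv13-2 (Gzma 69.0% against 28.9%), while in CTL Gzma lies at 4.65% and 4.17%.

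Among the cells led by Trbv13-2, those with several Tr1-like genes held fewer cytotoxic genes. Of the 38 KRN cells led by Trbv13-2 with at least 3 Tr1-like genes, 0 had Gzma, 0 had Ncr1, 4 (10.5%) had Klrk1, 7 (18.4%) had Gzmb and 11 (28.9%) had Ccl5. Of the other 76 cells led by Trbv13-2, 33 (43.4%, 32.1 to 55.3) had Gzma, 39 (51.3%) had Klrk1, 48 (63.2%) had Gzmb and 62 (81.6%) had Ccl5. The cells with fewer than 3 Tr1-like genes can be set side by side between the classes: Gzma was seen in 29 of 40 led by Trbv29 (72.5%, 56.1 to 85.4), at least 5 granzymes and effectors in 55% against 27.6%, and at least 5 NK receptors in 65% against 42.1%. These shares still stood higher in the Trbv29 class, by less than over all cells. The split uses the measured genes and is a description.

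Other leading segments of treated mice lay between or beyond these classes. At least 3 Tr1-like genes were seen in 11 of 16 KRN cells led by Trbv1 (68.8%, 41.3 to 89.0), 7 of 20 led by Trbv13-1 (35.0%), 3 of 11 led by Trbv12-2 (27.3%) and 3 of 16 led by Trbv13-3 (18.8%). Among segments that led at least 11 cells, Trbv29 was the lowest at 4.76% (0.582 to 16.2), and its interval overlapped those of Trbv13-3, Trbv12-2 and Trbv13-1. All other assigned segments together had 26 of 72 cells (36.1%), close to the 33.3% of Trbv13-2. For Il10 they had 14 of 72 (19.4%), of which 7 cells were led by Trbv1, against 0 of 42 for Trbv29. Trbv13-3 had Il10 in 1 of 16 cells (6.25%, 0.158 to 30.2), Il21 in 0 and Lag3 in 1 (6.25%), so that low shares were not seen in Trbv29 alone. Cells with no assigned segment had Il10 in 4 of 44 (9.09%). For at least 5 granzymes and effectors the share was 62.5% in Trbv13-3, above the 52.4% of Trbv29, 45.5% in Trbv12-2 and 6.25% in Trbv1, the last below the 18.4% of Trbv13-2 with an interval (0.158 to 30.2) that holds it. Gzma was seen in 56.2% of cells led by Trbv13-3 and 54.5% of those led by Trbv12-2, within the interval of Trbv29. At least 5 NK receptors were seen in 50% of cells led by Trbv13-3 and of those led by Trbv13-1, likewise within the interval of Trbv29. They were seen in 18.2% of those led by Trbv12-2 (2.28 to 51.8), whose interval overlaps that of Trbv29. In those led by Trbv1 the share was 6.25% (0.158 to 30.2), with an interval below that of Trbv29. At least 5 granzymes and effectors were seen in 30% of cells led by Trbv13-1 (11.9 to 54.3), again with an interval that overlaps that of Trbv29. Some of these other segments thus had cytotoxic shares like those of Trbv29, and only Trbv1 among them had intervals for both lists that lay below those of Trbv29. Pooled, they had Gzma in 29 of 72 cells (40.3%, 28.9 to 52.5) and at least 5 NK receptors in 24 (33.3%, 22.7 to 45.4), just below the intervals of Trbv29. At least 5 granzymes and effectors were seen in 24 (33.3%), with an overlapping interval. Cells with no assigned segment had 13.6% (5.17 to 27.4) for granzymes and effectors and 15.9% (6.64 to 30.1) for NK receptors, below those of Trbv29.

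**Figure D4:**
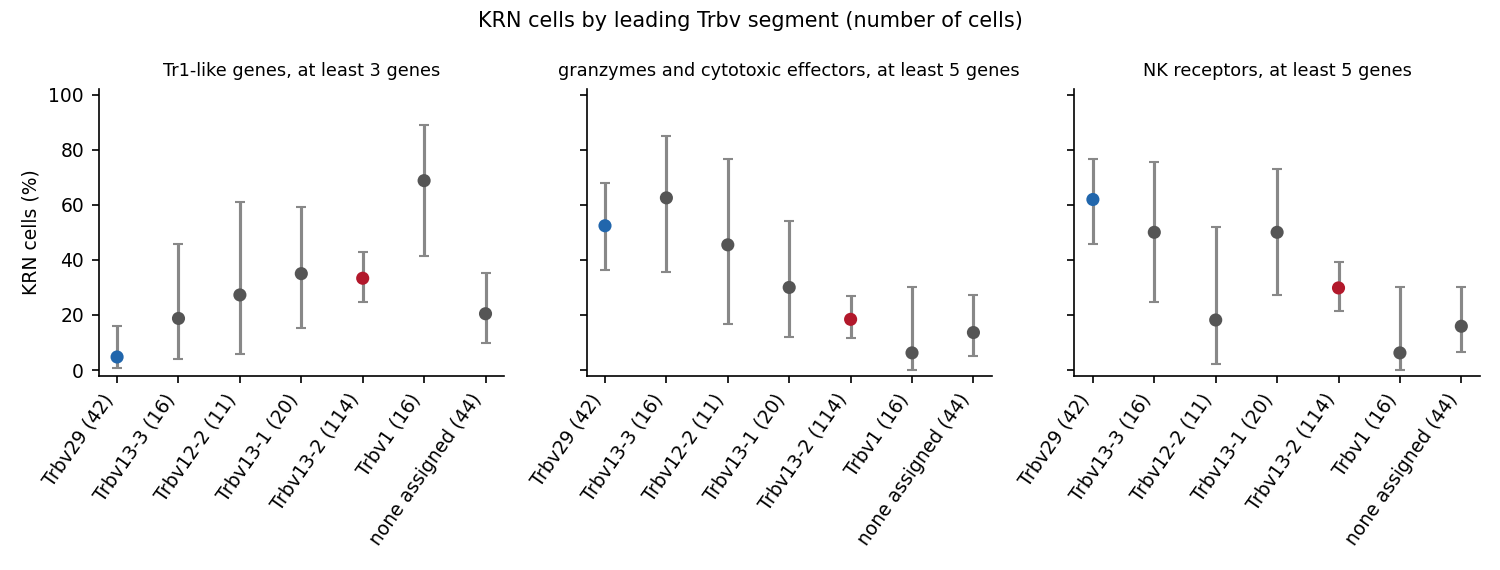
Share of KRN cells with at least 3 Tr1-like genes, at least 5 granzymes and effectors and at least 5 NK receptor genes, by leading Trbv segment, with the number of cells in brackets. Points are shares in percent and bars exact 95% binomial intervals; Trbv29 (blue) is lowest for Tr1-like genes at 4.76% and Trbv13-2 (red) stands at 33.3%.

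Across all genes, few differences between the classes were shared by the samples. Among 1487 genes with at least 10 counts in at least 10% of the members, 176 (11.8%) were at least 2-fold higher in the Trbv13-2 sum and 79 (5.31%) in the Trbv29 sum of CTL, and 196 (13.2%) and 110 (7.4%) in KRN. In both samples 45 genes (3.03%) were 2-fold higher in Trbv13-2 and 12 (0.807%) in Trbv29, and 29 were 2-fold different in opposite directions. The sign of the log2 ratio was the same in both samples for 51.2% of genes. In 351 genes, more than 50% of at least 1 of the 4 sums came from 1 cell.

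No gene was called across the samples by edgeR's quasi-likelihood test on the 4 sums with the sample as a block, which leaves 1 residual degree of freedom (0 of 1487 genes at an adjusted p under 0.05). The smallest adjusted p was 0.821, and 74 genes (4.98%) had an unadjusted p under 0.05, 52 of them higher in Trbv13-2. DESeq2 called 32 of 1458 genes (2.19%), 25 higher in Trbv13-2 (1.71%) and 7 in Trbv29 (0.48%). limma on the mean over cells of log2(CPM + 1) called 1 gene (0.0672%), Gzma, lower by 2.72 in Trbv13-2 (adjusted p = 0.00255), as the mean of a difference of -0.09 in CTL and -5.36 in KRN. These 2 differences are unlike, and limma takes a gene's variance partly from other genes, so that the call does not show agreement between the samples. edgeR gave Gzma an adjusted p of 0.935. Of the 23 named genes below, 17 were among DESeq2's calls, and the smallest adjusted p that edgeR gave any of them was 0.821. The named genes were picked from the same 4 sums that DESeq2 tested, so that this overlap is not independent support.

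Of genes higher in Trbv13-2 in both samples, by log2 ratio and by share, Rrp1 had the largest smaller-of-both ratio. Rrp1, which acts in ribosomal RNA processing, stood at 315.6 and 47.4 CPM in CTL (Trbv13-2 and Trbv29) and at 269.6 and 31.7 CPM in KRN, log2 ratios of 2.71 and 3.05. It was seen in 23 and 2 cells of CTL and in 16 and 1 of KRN, so that the Trbv29 sums are carried by 1 or 2 cells. By lane its ratio was 1.17 and 9.02 in CTL and 8.40 and 0.28 in KRN (lanes 1 and 2). In lane 2 of KRN, 7 of the 12 genes named for Trbv13-2 and 4 of the 11 named for Trbv29 were no longer 2-fold different in their direction. The other 11 of the 12 shown by the rule, out of 38 that met it, were Dusp11, Klf13, Peli1, Dpf2, Ssr4, Ppil2, Ngdn, Ppil1, Ndufc2, Utrn and Tcp1. In each of the 12, 1 cell gave most of at least 1 Trbv29 sum, as for Utrn (96.6% in CTL and 93.6% in KRN). For Dusp11, Dpf2, Ssr4, Ppil2, Ndufc2, Utrn and Tcp1, the intervals of the share difference included 0 in both samples. Peli1, which encodes a ubiquitin ligase that restrains T cell activation, was seen in 17 (14.2%) and 3 (6.98%) CTL cells and in 16 (14.0%) and 0 KRN cells. Ppil1 had no read in the CTL Trbv29 sum. Klf13, a transcription factor of T cells, had log2 ratios of 2.10 and 2.26, but within lane 2 of KRN the latter was -5.32.

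In the other direction 11 genes met the rule: Chordc1, Arpp19, Galt, Pdcd4, Pop5, Ifi203, Lgals3bp, Tpr, Zfp36l2, Ncr1 and Mob3a. For all of them but Ifi203, Lgals3bp and Ncr1, the intervals of the share difference included 0 in both samples. Lgals3bp, a secreted galectin-binding protein, was seen in 16.3% and 12.5% of CTL cells (Trbv29 and Trbv13-2) and in 23.8% and 10.5% of KRN cells, with log2 ratios of -1.26 and -1.57. Ifi203, an interferon-inducible gene, had log2 ratios of -1.28 and -2.26, and was seen in 28.6% and 14.0% of KRN cells. Ifi27l2a, also interferon-inducible and chosen after its values were seen, had the other order in KRN, in 9.52% and 27.2% of cells (17.7 points for Trbv13-2 minus Trbv29, 3.15 to 28.2). Zfp36l2, which binds and destabilises mRNA, had -1.12 and -1.39, and 52.1% of its KRN Trbv29 sum came from 1 cell. Without the highest cell of each sum its values were -0.99 and -0.74. Pdcd4, which restrains translation, had -1.32 and -1.63; without the highest cell of each sum its KRN value turned to 0.31.

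**Figure D5:**
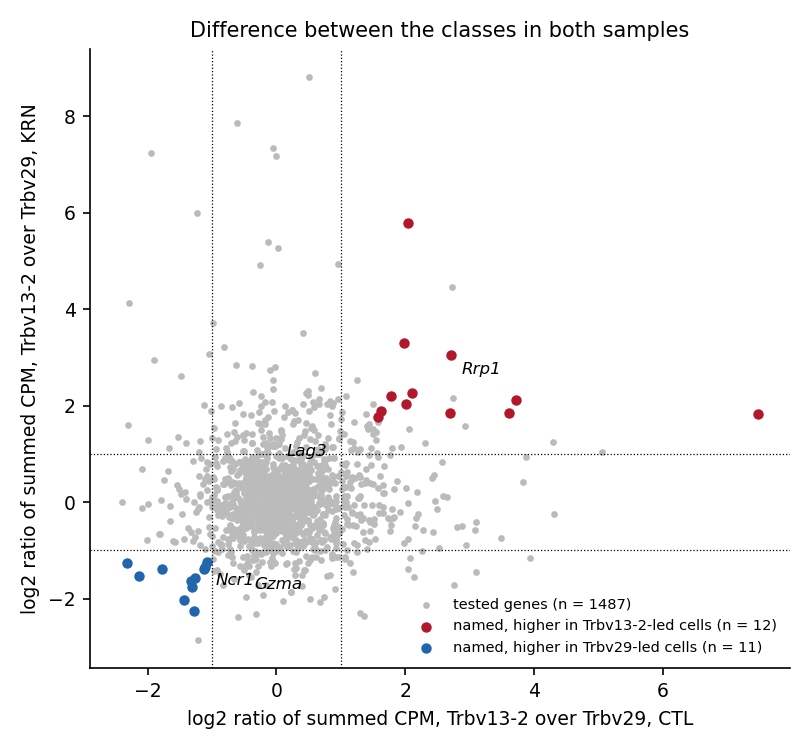
log2 ratio of summed CPM (Trbv13-2 over Trbv29, prior of 1 CPM) in CTL on the horizontal and in KRN on the vertical axis for the 1487 tested genes, with the 12 and 11 named genes in colour and lines at a 2-fold difference. Rrp1 lies at 2.71 and 3.05, Ncr1 at -1.10 and -1.34, and Gzma at -0.51 and -1.42.

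Genes of the T cell receptor pathway and of the early response to it are given next. Of 16 tested genes of the CD3 chains and proximal signalling, 2 were 2-fold higher in Trbv13-2 in CTL and 0 in KRN (11.8% and 13.2% of all tested genes), with medians of 0.05 and 0.10 (all tested genes 0.04 and 0.03). Zap70, the kinase that binds the CD3 chains, was chosen after its values were seen. It was seen in 33.3% and 16.3% of CTL cells (Trbv13-2 and Trbv29; 17.1 points, 1.29 to 29.1) and 50% and 33.3% of KRN cells (16.7 points, -0.938 to 31.9). Early genes such as Dusp1 and Fos, which rise within an hour of stimulation and also during cell isolation, had 0 of 9 tested members past 2-fold in either direction in either sample. At least 3 of them were found in 80.0% and 79.1% of CTL cells and in 47.4% and 45.2% of KRN cells. At least 5 were found in 40% and 51.2% of CTL cells and in 11.4% and 11.9% of KRN cells.

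The remaining lists had few tested members, to be read against the 11.8% (CTL) and 13.2% (KRN) of all tested genes that were 2-fold higher in Trbv13-2 and the 5.31% and 7.4% in Trbv29. Of 5 tested lineage transcription factors 1, Batf, was 2-fold higher in Trbv13-2 in KRN, and Id2, the most abundant, had log2 ratios of -0.08 and -0.15. Of 6 tested cytokine receptors 3 in CTL (Ifngr1, Il18r1 and Il2rg) and 2 in KRN (Il27ra and Il2ra) were 2-fold higher in Trbv13-2, and Ifngr1 was 2-fold higher in Trbv29 in KRN, the reverse of CTL. These genes were named after their values were seen. Of 8 tested chemokine receptor and liver retention genes, 1 was 2-fold higher in Trbv29 in KRN, and Cxcr6, which holds iNKT cells in liver sinusoids, was seen in 46.5% and 50% of KRN cells against 74.2% and 86.0% in CTL. Ifng was seen in 21.9% and 21.4% of KRN cells, and effector cytokines had 0 of 2 tested members past 2-fold in either sample. S phase and mitosis genes, at least 3 in a cell, were found in 7.02% and 7.14% of KRN cells and in 4.17% and 0% of CTL cells. iNKT17 markers reached 3 genes in at most 1 cell of a class, and iNKT2 markers in at most 1. At least 1 of 6 iNKT2 markers was seen in 23.3% and 16.3% of CTL cells (Trbv13-2 and Trbv29) and in 27.2% (19.3 to 36.3) and 9.52% (2.66 to 22.6) of KRN cells. Their summed level was 169.3 and 54.6 CPM in CTL and 280.7 and 80.4 CPM in KRN.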

How the data were processed

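Single iNKT cells were profiled by SmartSeq2, and the authors deposited whole-number counts of reads per gene and cell, made with STAR, which aligned the reads to GRCm38.p6 and gave the counts, without further scaling. The tables held 55401 gene rows and no total or unnamed row, and 0 columns were left unused. Gene symbols came from the annotation tables (54349 rows), and 270 rows of TCR segments were set apart. The methylation, ATAC-seq and other files of the series were not used here. TCR junctions came from the study's list of chains, for sequences only, and the exons from the reference genome.

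Members and gene lists were chosen with earlier results of these data known. Cells had at least 100000 counts and a leading Trbv of at least 5. No doublet caller was run; runner-up segments are reported instead. A gene was tested with at least 10 counts in at least 10% of all members. Counts were summed per class and sample, and log2 ratios used CPM with a prior of 1 CPM. Shares carry exact Clopper-Pearson intervals and differences Newcombe intervals at 95%; a count of 0 was given a limit of 3 cells. All cover counting error only, since PCR reads without identifiers are not independent molecules. The 4 sums were tested with edgeR 4.0.16 (quasi-likelihood, TMM, sample as a block, Benjamini-Hochberg at 0.05), with DESeq2 1.42.0 and limma 3.58.1 as alternatives, in R 4.3.3; other steps used Python 3.11.15. The edgeR step was also run on simulated counts with a common dispersion and the same fold in both samples. Those counts lacked sums carried by 1 cell and differences in KRN only, so that they do not show what the test could detect here. Sums pool 3 mice per sample that cannot be separated. With the sample as a block, the p-values weigh the class difference against its change between CTL and KRN, which differ in treatment. A class difference seen in KRN only thus counts as error in this test.

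Named genes had a log2 ratio of at least 1 in size with the same sign in both samples and a share that differed the same way; up to 12 in each direction with the largest smaller-of-both ratio are given, with Il10, Il21, Lag3 and the most abundant 2 to 4 members of each list. The listed genes without a row (Tcf7, Junb, Ier2, Myc, Cd244, Isg15 and Mx1) were not analysed here. Apart from those printed, a further junction sequence and 1 gene list are not reported here. Alternatives changed the Trbv and depth minimums, the runner-up share, clonotypes, the study's own cell filter, thinning to 100000 counts, lanes, the prior, the gene filter and the tool.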

Additional observations from a re-analysis of the deposited data

Results flagged for a closer look

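In 3 lists the classes differed with opposite sign in CTL and KRN, as the share of cells with at least 3 of their genes, in percentage points for Trbv13-2 minus Trbv29. For granzymes and cytotoxic effectors it was 8.84 (-7.96 to 25.5) in CTL and -23.8 (-34.6 to -8.94) in KRN. For NK receptors it was 3.93 (-12.9 to 18.6) and -35.5 (-46.8 to -19.6). For iNKT1 markers it was 7.91 (-5.85 to 23.9) and -24.2 (-33.7 to -10.8). With at least 5 genes, the CTL differences were -4.96, -3.12 and -10.2, the same sign as in KRN. All these CTL intervals include 0, each sample is 1 pool of cells, and the difference between CTL and KRN was not tested.

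Il10 was also seen in KRN cells outside both classes: 14 of 72 cells led by another Trbv segment held at least 10 counts (19.4%, 11.1 to 30.5), and no such cell of CTL did.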

How the results depend on the processing

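The KRN share differences kept their direction under every alternative run: over 13 alternatives Il10 (with no positive Trbv29 cell, so of fixed direction) ranged from 13.5 to 19.5 points, Il21 from 5.18 to 11.7 and Lag3 from 9.66 to 15.8, and over 11 alternatives at least 3 Tr1-like genes from 25.9 to 30.8, at least 5 granzymes and effectors from -42.3 to -31.1, at least 5 NK receptors from -37.2 to -30.1, at least 5 iNKT1 markers from -27.9 to -20.7 and Gzma from -45.5 to -36.8. In CTL, at least 5 granzymes and effectors gave 6.64 points in lane 2, against -4.96 (-18.2 to 3.89) over all cells. The lane 2 value thus had the other sign and lay outside that interval. edgeR called 0 genes under each of its settings, DESeq2 32 and limma 1. The 45 genes 2-fold higher in Trbv13-2 in both samples (of 1487 tested) became 108 of 1487 without the highest cell of each sum, 27 of 1172 after thinning and 145 of 1861 in lane 2, and the 12 higher in Trbv29 became 20 of 1327 in lane 1 and 54 of 1861 in lane 2, where fewer cells enter each sum; otherwise the cause was not tested. Leaving out the highest cell moved the median log2 ratio of all genes from 0.04 to 0.26 in CTL and from 0.03 to 0.29 in KRN. Of 686 log2 values of named genes under alternatives, 625 stayed past 2-fold, 53 fell under it and 8 reversed: in lane 2, Dusp11 in CTL (-0.21), and in KRN Klf13 (-5.32), Galt (0.018), Pdcd4 (1.01), Zfp36l2 (0.015) and Il21 (-0.76); in lane 1, Arpp19 in CTL (0.35); and without the highest cell, Pdcd4 in KRN (0.31). The alternatives for lists, and leaving out cells with markers of other cell types, were chosen after seeing the data. By replicate number, no paired analysis was possible because the SmartSeq2 samples carry none. edgeR tested the class difference across both samples, not within a sample, and called 0 genes with and without the sample block. With 1 sample per group none could be left out.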
